A study of Mus musculus with 8 samples.

Results

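The miR-34 family was followed in mice held in the cold or at room temperature, in their brown adipose tissue, which burns fat to make heat. Its members were taken by name: every array probe annotated to mmu-miR-34a, mmu-miR-34b-5p, mmu-miR-34b-3p or mmu-miR-34c. All 4 were on the array, out of 566 mouse miRNAs, with 2 probes each, and each of these 8 probes was printed in 10 spots per array. The cold group was 3 male C57Bl6N mice aged 8 weeks that spent 24 h at 8 °C (mice 1 to 3), and the comparison group was 3 male mice of the same strain and age at 21 °C (mice 4 to 6). No genotype or drug distinguished the groups. Mouse 1 and mouse 4 were each hybridised to 2 one-colour Agilent miRNA arrays, which made 8 arrays on 1 slide. The array reads RNA from the whole depot, so fewer cells of a type and less RNA per cell cannot be told apart.

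miRNAs are short RNAs that bind messenger RNAs through bases 2 to 8 of their 5′ end, the seed, and lower their output. The miR-34 family is known as a target of the tumour suppressor p53, and it acts on cell cycle and survival messages such as those of Cdk6, Ccnd1, Met and Bcl2. miR-34a is transcribed alone and is found in many tissues. miR-34b and miR-34c come from a shared locus and are best known from testis and multiciliated epithelium. In fat, miR-34a has been studied for its action on Sirt1 and on FGF21 signalling, in obesity and in the browning of fat.

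The sequences show how closely the members resemble each other, which bears on what each probe can read. Of the 4 members, 3 were matched to a mature sequence in RefSeq (GRCm38.p6), with the array's miR-34a taken as the 5p arm. Capitals mark the seed.
miR-34a-5p: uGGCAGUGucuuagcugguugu
miR-34b-5p: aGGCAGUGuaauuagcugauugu
miR-449a-5p: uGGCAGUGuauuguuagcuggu
miR-449c-5p: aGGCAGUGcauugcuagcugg
miR-34b-3p: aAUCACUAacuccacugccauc
miR-34c-3p: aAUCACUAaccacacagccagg

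miR-34a-5p, miR-34b-5p, miR-449a-5p and miR-449c-5p carried the same seed, and they were the only 4 of 1738 mature mouse miRNAs in the RefSeq table that did. miR-34b-3p, from the opposite arm of the miR-34b hairpin, had another seed, which it shared with miR-34c-3p. Aligned from the first base without gaps, miR-34a-5p and miR-34b-5p had the same base at 11 of 22 positions. The mature miR-34c-5p is named only, but its hairpin was present. In the hairpins below, capitals mark the 2 mature arms of miR-34b and, in that of miR-34c, the shared seed.
Mir34b hairpin: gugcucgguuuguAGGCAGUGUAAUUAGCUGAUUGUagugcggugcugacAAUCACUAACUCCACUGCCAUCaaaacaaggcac
Mir34c hairpin: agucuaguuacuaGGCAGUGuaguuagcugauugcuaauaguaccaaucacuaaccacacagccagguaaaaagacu

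Set on the seed of the Mir34c hairpin, miR-34b-5p matched it at 21 of 23 bases, against 11 of 22 for miR-34a-5p. Probe sequences were not used here, and whether the miR-34b-5p and miR-34c probes each read their own miRNA was not tested. The Mir34b hairpin lies at chr9:51103562-51103645 and the Mir34c hairpin at chr9:51103034-51103110, close together on the minus strand of GRCm38.p6. Both lie within the spans of the genes Hoatz and Btg4. The Mir34a hairpin lies at chr4:150068454-150068555 on the plus strand, outside any other annotated gene, between the long non-coding RNA gene Gm13067 and Gpr157.

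The arrays were of unequal brightness, and this touches every dim member. The 75th percentile of signal over probes seen on all arrays, by which each array was scaled, was 627 to 918 scanner units in cold mice and 863 to 1408 in room temperature mice (793 ± 150 against 1085 ± 286, SD, n = 3, exact permutation p = 0.2, 2-sided). A cold mouse had 177 to 187 miRNAs well above background and a room temperature mouse 200 to 227 (exact permutation p = 0.1, n = 3). With 3 mice against 3, this test cannot go below 0.1. "Well above background" is the scanner software's own mark for a spot, and a probe counted as detected on an array when more than 0.5 of its spots had it. Each group filled a row of the slide of its own, so an effect of the row and one of the cold cannot be told apart.

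Detection separated the members into 3 kinds. miR-34a was read on every array, by both probes. miR-34b-5p and miR-34c, the 5p products of the chromosome 9 locus, were read on room temperature arrays and on no cold array. miR-34b-3p was read on none of the 8 arrays.

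The 2 probes for miR-34a had 74 of 77 used spots well above background on cold arrays and 77 of 77 on room temperature arrays. For miR-34b-5p, the brighter probe (A_54_P2446) had 1 of 36 spots well above background on the cold arrays and 28 of 36 on the room temperature arrays, and was detected on 0 of 4 and 4 of 4 arrays. Its second probe (A_54_P2445) had 0 of 40 against 10 of 40 such spots and was detected on no array. For miR-34c, the brighter probe (A_54_P1248) had 0 of 40 against 23 of 39 spots and was detected on 0 of 4 and 3 of 4 arrays; the array of mouse 5 was the one below the mark. The second miR-34c probe (A_54_P1247) had no spot well above background on any array, and neither had the 2 probes for miR-34b-3p. Spots of 1 probe on 1 array share a sample, so these counts carry no test.

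**Figure D1:**
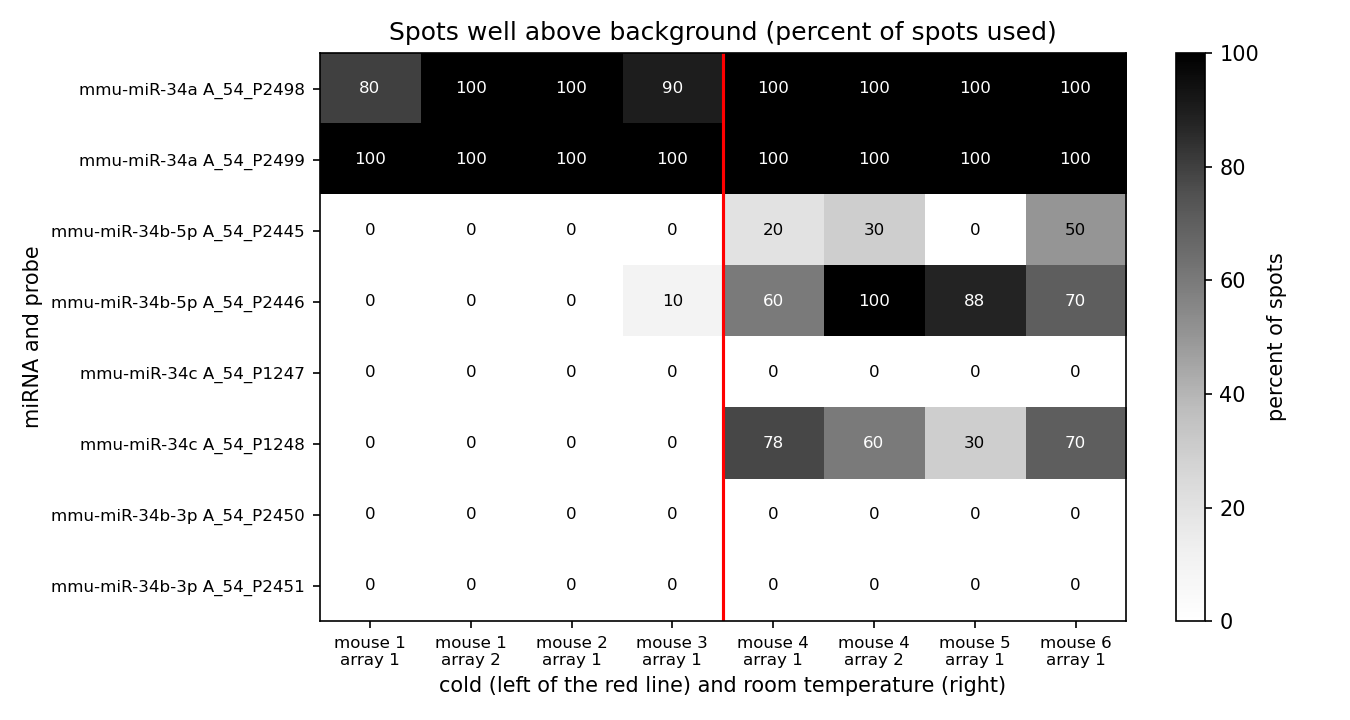
Percent of used spots well above background for each of the 8 miR-34 probes (rows) on each of the 8 arrays (columns, cold left of the red line). The miR-34a rows are at 80 to 100 throughout, and the brighter miR-34b-5p and miR-34c rows are at 0 to 10 in the cold and 30 to 100 at room temperature.

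That pattern was not common, and it ran mostly one way. Of 442 mouse probes detected on at least 1 array, 26 (5.88%) were detected on 3 or 4 room temperature arrays and on no cold array, and the brighter miR-34b-5p and miR-34c probes were 2 of these. The opposite pattern, 3 or 4 cold arrays and no room temperature array, was met by 1 probe (0.226%). The scanner software's own call for a whole miRNA marked miR-34b-5p as present on 1 of 4 cold and 4 of 4 room temperature arrays. It marked miR-34c on 0 of 4 and 4 of 4 arrays, miR-34a on all 8 and miR-34b-3p on none.

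The unscaled signals, in scanner units after background subtraction, are given next for each mouse, and signals of different probes are not compared as levels. The brighter miR-34a probe (A_54_P2499) read 353, 540 and 654 units in cold mice 1 to 3 and 497, 732 and 1024 in room temperature mice 4 to 6. These groups overlapped, since cold mice 2 and 3 read above room temperature mouse 4. The means were 516 ± 152 and 751 ± 264 (SD, n = 3, exact permutation p = 0.3).

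The second miR-34a probe (A_54_P2498) read 111, 179 and 245 units in the cold and 191, 273 and 388 at room temperature. Cold mouse 3 again lay inside the room temperature range. The means were 178 ± 66.9 and 284 ± 98.6 (SD, n = 3, exact permutation p = 0.2). Both probes put mouse 1 lowest and mouse 6 highest.

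For miR-34b-5p, the brighter probe read 5.82, 4.64 and 5.77 units in cold mice 1 to 3 and 17.6, 15.9 and 22.4 in room temperature mice 4 to 6. The lowest room temperature mouse lay above the highest cold mouse, so the groups did not overlap. The means were 5.41 ± 0.667 and 18.6 ± 3.38 (SD, n = 3, exact permutation p = 0.1). On no cold array did the probe reach the detection mark, so the cold mean is not a measured level. Of 329 mouse probes that passed the filter on dim probes, 111 (33.7%) likewise had every cold mouse below every room temperature mouse on this unscaled signal. The second probe gave 3.79 ± 0.86 against 5.97 ± 1.67 units (SD, n = 3, exact permutation p = 0.2), with cold mouse 3 just above room temperature mouse 5.

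For miR-34c, the brighter probe read 3.54, 5.01 and 5.02 units in the cold and 11.6, 8.16 and 14.5 at room temperature. Here too the lowest room temperature mouse, mouse 5, lay above all cold mice. The 33.7% of kept probes with this order leaves out this probe, which did not pass the filter. The share among probes outside the filter was not counted, so the order is no trait of miR-34c. The means were 4.52 ± 0.853 and 11.4 ± 3.19 (SD, n = 3, exact permutation p = 0.1). The second miR-34c probe, below the detection mark throughout, gave 1.37 ± 0.653 and 3.42 ± 1.21 units (SD, n = 3, exact permutation p = 0.2).

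miR-34b-3p signals lay within a few units of 0. One probe (A_54_P2450) gave 2.64 ± 0.488 units in the cold and 0.56 ± 0.647 at room temperature (SD, n = 3, exact permutation p = 0.1), and the other (A_54_P2451) gave -0.925 ± 0.596 and -1.36 ± 0.157 (SD, n = 3, exact permutation p = 0.4). Negative control spots averaged 0.275 ± 0.378 and 0.159 ± 0.207 units (SD, n = 3). Values this close to background have no order, so no fold is given for miR-34b-3p. The passenger arm of miR-34c, which the array names miR-34c*, was likewise detected on no array by its 2 probes.

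**Figure D2:**
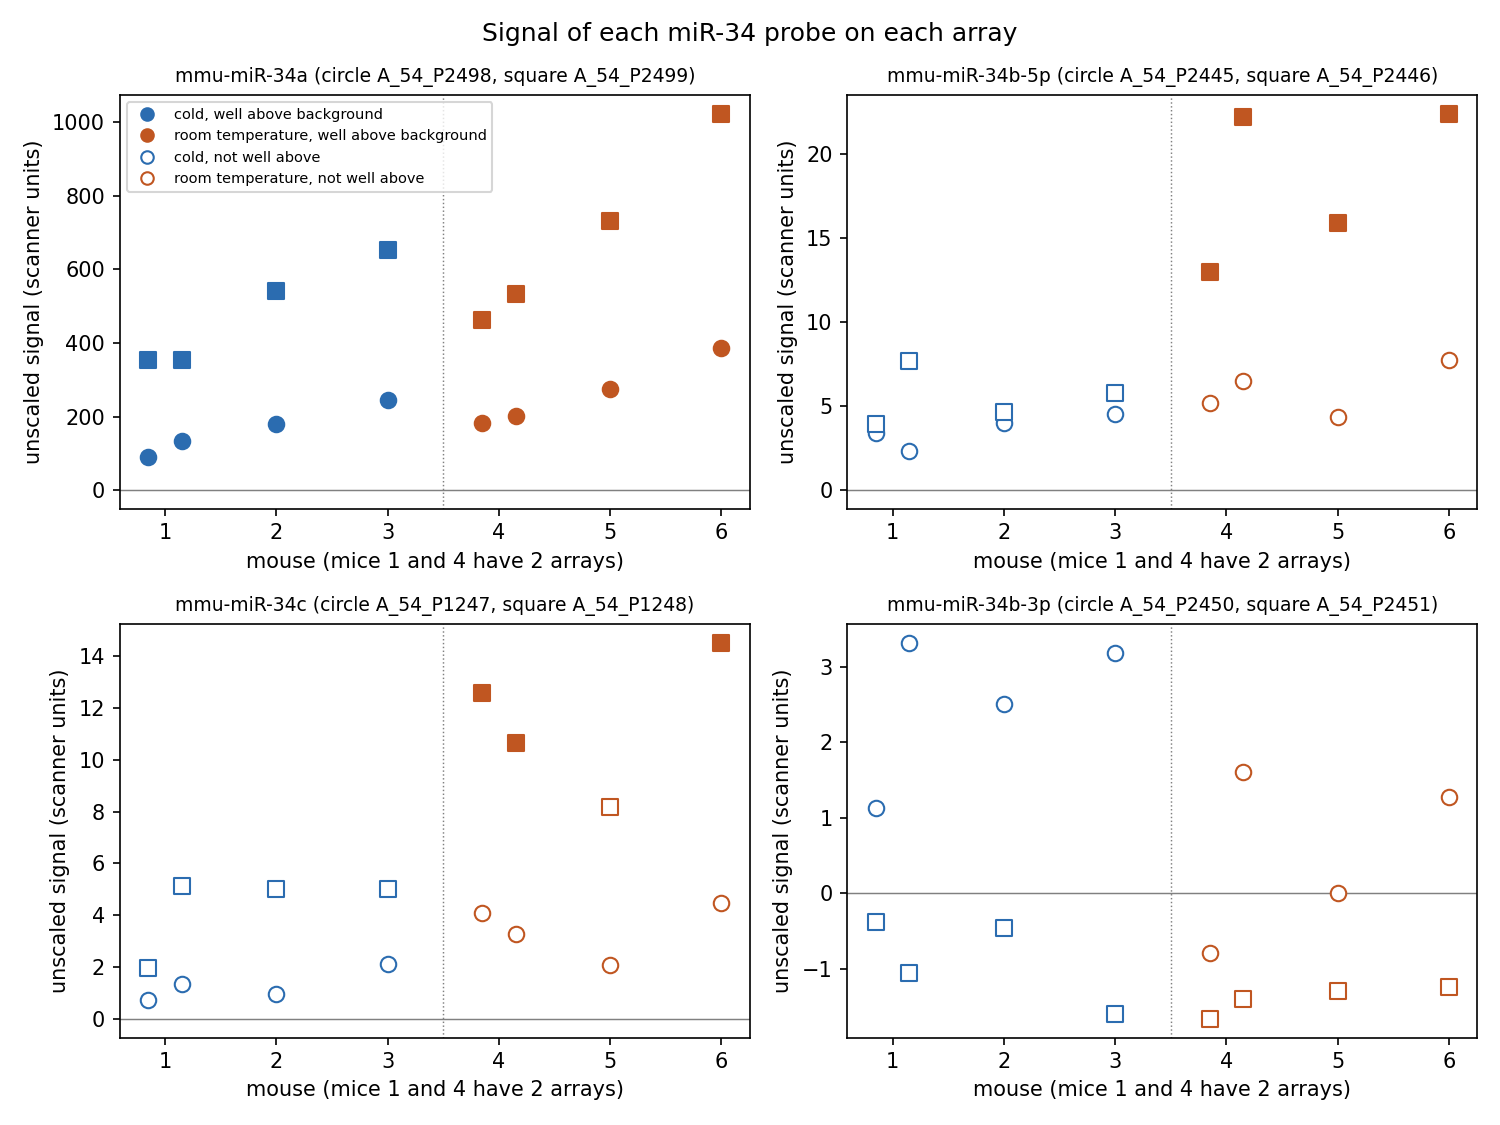
Unscaled signal (scanner units, linear axis, own scale per panel) of each miR-34 probe on each of the 8 arrays, by mouse, with filled markers where the probe was detected. miR-34a is filled everywhere, 1 probe each of miR-34b-5p and miR-34c is filled only among room temperature arrays, and miR-34b-3p lies within a few units of 0.

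The repeat arrays show what the arrays alone add. In mouse 4, the brighter miR-34b-5p probe read 13.0 units on the first array and 22.2 on the second, and in mouse 1 it read 3.94 and 7.70. The 2 arrays of mouse 4 lay farther apart than the 3 room temperature mice did. The brighter miR-34a probe repeated more closely, at 462 and 533 units in mouse 4 and 352 and 353 in mouse 1.

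After scaling, miR-34a did not pass the test between cold and room temperature. Its level, the mean log2 of the scaled signal over both probes, was -1.67, -1.42 and -1.20 in cold mice 1 to 3. In room temperature mice 4 to 6 it was -1.68, -0.95 and -1.16. The lowest value of all was that of room temperature mouse 4, and the groups overlapped. The change, cold minus room temperature, was -0.17 ± 0.22 on the log2 scale (SE, n = 3 per group, limma, Benjamini-Hochberg adjusted p = 0.610 over 189 miRNAs), with a 95% interval from -0.67 to 0.33. By itself, the brighter probe gave -0.09 (adjusted p = 0.806) and the second -0.26 (adjusted p = 0.466).

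Scaled miR-34b-5p was lower in the cold, except with a normexp background or a floor of 0.05. The size of the difference was not measured, since the probe was detected on no cold array. This miRNA entered the test through its brighter probe alone, which met the filter on the room temperature arrays and not on the cold ones. Its log2 level was -6.55, -6.64 and -6.64 in the cold and -5.86, -5.76 and -5.97 at room temperature, with no overlap. The value -6.64 is the floor (0.01 of the array's 75th percentile), where 3 of the 4 cold arrays stood. The change was -0.75 ± 0.12 (SE, n = 3 per group, limma, adjusted p = 0.0106). The filter favoured a lower reading in the cold for a miRNA that met it through the room temperature arrays alone. Values at the floor also have no spread of their own, so this p and SE are not independent support for a difference.

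The size of that change follows from where the floor stands. It was -1.34 with a floor of 0.001, and 0 with a floor of 0.05, under which all 8 arrays lie. With cold signals raised to their array's lowest signal well above background (7.43 to 12.9 units) where they were under it, room temperature was 1.28-fold higher. This is not a strict lower limit. On the second array of mouse 1 the probe read 7.70 units, above that array's 7.43, and was still not detected. A normexp background with an offset of 50, made from the median spot and background signals, gave 0.16 with an adjusted p of 0.550. The median change of all tested miRNAs was then 0.21. That offset is larger than the highest unscaled signal of this probe, 22.4 units, so this setting cannot give its direction. Without scaling, the change was -1.03 and no longer passed (adjusted p = 0.0529).

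As background to this call, 29 of the 189 tested miRNAs (15.3%) passed, 16 of them higher in the cold and 13 lower (6.88%). For 35 (18.5%), all cold mice had a lower level than any room temperature mouse. The median change of all tested miRNAs was -0.02. That split moved with the scaling: unscaled signals gave 0 higher and 13 lower, and a 75th percentile taken over every probe gave 11 and 17. Scaling to the control RNAs named dmr alone gave 3 and 36, with a median change of -0.34. The normexp background, with the scaling kept, gave 2 and 4.

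**Figure D3:**
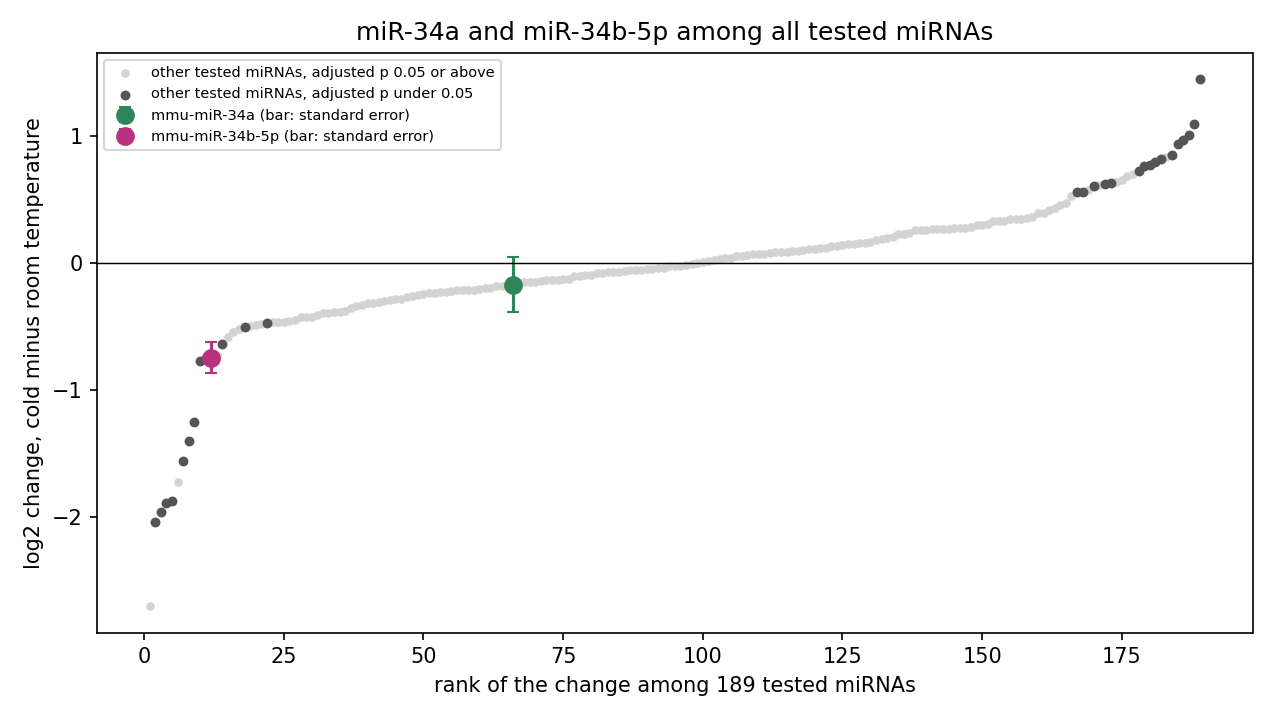
Log2 change, cold minus room temperature, of 189 tested miRNAs in rank order, with miR-34a and miR-34b-5p coloured and their standard errors as bars. miR-34b-5p, at -0.75, is at rank 12 (0.16 with a normexp background), and miR-34a, at -0.17, is at rank 66 with a bar that crosses 0.

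miR-34c, which met the filter in neither group, was left out of that test. Fitted with no filter it gave -0.05 (adjusted p = 0.426), with most arrays at the floor. After scaling, its room temperature mean was under the lowest signal well above background on the cold arrays, so no fold is given. At this signal a difference in miR-34c was not measurable after scaling. What can be given is its detection on room temperature arrays and on no cold array, with a lowest detected signal that differed between arrays.

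A ratio of 2 members within a mouse does not depend on how bright the array was, but it can show unequal change only where both signals are well above background. On the cold arrays the miR-34b-5p and miR-34c signals were not, so the ratios are given as a description. The log2 ratio of the brighter miR-34b-5p probe to the mean of the miR-34a probes was -5.15, -6.07 and -6.11 in cold mice 1 to 3. It was -4.18, -4.82 and -4.81 in room temperature mice 4 to 6. The groups did not overlap on these measured signals, and the difference of the mean log2 ratios was -1.17 (exact permutation p = 0.1, n = 3, adjusted over 3 ratios p = 0.15). How many other probes have a ratio to miR-34a that separates the groups was not counted. The 33.7% of kept probes given above is for unscaled signal and not for a ratio.

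The measured ratio of miR-34c to miR-34a, with no cold spot well above background behind it, was -6.08 ± 0.21 against -5.32 ± 0.53 (SD, n = 3, exact permutation p = 0.1, adjusted p = 0.15). The ratio of miR-34c to miR-34b-5p, the pair from the chromosome 9 locus, was -0.30 ± 0.46 in the cold and -0.71 ± 0.22 at room temperature and overlapped (SD, n = 3, exact permutation p = 0.3). With the cold miR-34b-5p signal raised to the lowest signal well above background, the difference in its ratio to miR-34a was -0.18 (exact permutation p = 0.5, n = 3). With the normexp background, both differences had the other sign, at 0.26 for miR-34b-5p (exact permutation p = 0.5, n = 3) and 0.37 for miR-34c (exact permutation p = 0.4, n = 3). Its offset of 50 is larger than every unscaled signal of these 2 numerator probes, so this setting cannot give the direction of either ratio. These values do not show whether the members changed unequally.

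**Figure D4:**
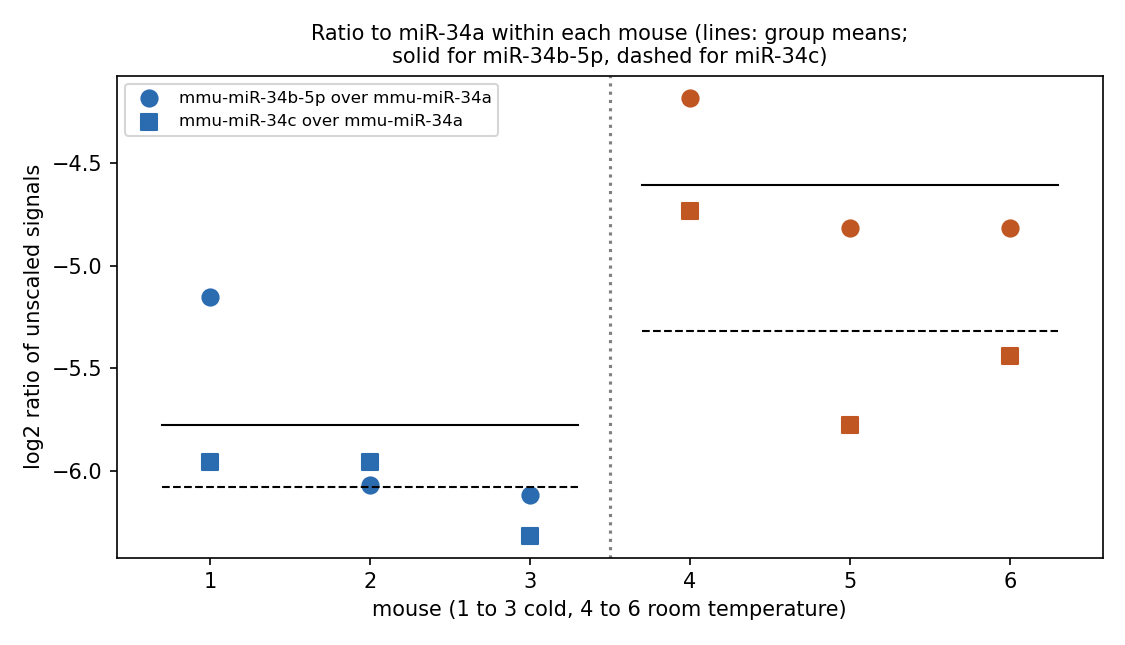
Log2 ratio of the unscaled signal of the brighter miR-34b-5p probe (circles) or miR-34c probe (squares) to the mean of the miR-34a probes in each mouse, with group means as lines. For each ratio, all 3 cold mice lie below all 3 room temperature mice, and how many other probes do so was not counted. With a normexp background the mean difference had the other sign, but its offset is larger than the numerator signals. The cold numerators are not well above background, and the height of a ratio compares probes and is not an abundance.

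By Pearson's r of the log2 level over the 6 mice, miR-34a was most like miR-497 (r = 0.995), miR-150 (r = 0.945) and miR-30c (r = 0.939), none of which passed the test (changes of -0.09, -0.02 and -0.32). miR-34b-5p was most like miR-199a-3p (r = 0.996), miR-199b* (r = 0.968) and miR-186 (r = 0.961). These 3 also passed, with changes of -0.77, -0.50 and -1.40 (limma adjusted p = 0.0105, 0.0453 and 0.00167). The correlations describe 6 mice of 2 groups, so a group difference that miRNAs share raises r, and with cold miR-34b-5p at or near the floor its values hold little besides the group difference.

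Of the other miRNAs with the same seed, miR-449a, miR-449b and miR-449c were on the array and detected on none of the 8 arrays. The list of miRNAs known to share the seed held 6 names, the 4 shown by sequence together with miR-34c and miR-449b, for which no mature 5p sequence is shown. Of these 6, 2 were tested and 1 passed, miR-34b-5p, against 15.3% of all tested miRNAs. That pass has the limits of filter and floor given above, so it is no result about the list. Among 14 miRNAs described as induced or matured through p53, 8 were tested. Of these, 1 passed (miR-34b-5p again, lower in the cold and with the same limits) and 7 did not, a share near the 15.3% of all tested miRNAs. The median change of these 8 was 0.09, against -0.02 over all tested miRNAs. The next smallest p-values on that list were those of miR-107 (0.30, adjusted p = 0.190) and miR-15a (0.23, adjusted p = 0.299), a miRNA that, like miR-34, acts on Bcl2.

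Marker miRNAs of the tissue and of other cell types were read as well, with passes only among those of brown fat and striated muscle. The part of these markers in the miR-34 values was not tested. Their counts stand against the 15.3% of all tested miRNAs that passed. All 6 brown fat miRNAs on the list were tested, and after scaling 2 passed as higher in the cold. These were miR-193b, by 0.64 (limma adjusted p = 0.0129), and miR-378, by 0.97 (limma adjusted p = 0.0219). The other 4 did not pass, and 1 of them had a negative change. The summed unscaled signal of this list overlapped, at 6505 to 11514 units in cold mice and 7963 to 13661 at room temperature. Without scaling, 0 of all tested miRNAs passed as higher. Of 6 striated muscle miRNAs, 4 were tested and 3 passed: miR-133a fell by 1.88, miR-133b fell by 1.97 and miR-206 fell by 2.05 on the log2 scale (adjusted p = 0.0229, 0.0228 and 0.0453). Outside the test, miR-499 and miR-208b were each detected by at least 1 probe on 0 cold and 3 room temperature arrays, as was miR-34c. Of detected mouse probes, 5.88% were detected on 3 or 4 room temperature arrays and no cold array. The summed unscaled signal of the muscle list was 1947 to 6664 units in cold mice and 10508 to 24322 at room temperature, a lack of overlap that 33.7% of kept probes had in this direction on unscaled signal. The leukocyte list summed to 429.2 to 941 units in cold mice and 1076 to 1659 at room temperature, also without overlap. That 33.7% is a share of single probes, and no share was counted for sums over a list. None of the 5 leukocyte members passed, and all 5 changes were negative, with a median of -0.38 against -0.02 over all tested miRNAs. Of the 2 erythroid miRNAs, miR-451 and miR-144, neither passed, with changes of 0.64 and 0.83 (limma adjusted p = 0.0580 and 0.0525). None of the 9 epithelial miRNAs, which include the miR-449 and miR-200 groups of ciliated and other epithelia, was detected on any array.

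Across the processing alternatives, miR-34a was lower in the cold under all 33, by between 0.01 and 0.61 on the log2 scale, and passed under none of them. For miR-34b-5p, leaving out each mouse in turn gave changes of -0.80 to -0.70, but the cold values stayed at or near the floor, so this range says nothing about stability.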

How the data were processed

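The deposited files hold the scanner output of 8 one-colour arrays. The intensity values the authors deposited are spot signals after background subtraction, written by Agilent Feature Extraction 10.7.3.1 per the file headers (9.5.3.1 per the submitters' processing notes); software flags, deposited by the authors, gave detection and outliers. The authors' value table held the same intensities. Outlier spots were left out, spots averaged per probe, and arrays divided by their 75th percentile over the 267 probes detected on all arrays. Values were floored at 0.01 and log2 taken. A probe was kept if detected on every array of at least 1 group. Kept probes, then arrays of a mouse, were averaged and tested with limma 3.58.1 (R 4.3.3; Benjamini-Hochberg, threshold 0.05), checked on simulated data. Ratios used unscaled signals without a floor, so that they do not depend on scaling. The number of arrays limits the precision. Alternatives changed the scaling, background, spot summary, filter, floor, arrays and mice.

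miRNAs named are the members, the 3 tested miRNAs most correlated with each tested member, and up to 3 with the smallest p per list. The untested muscle miRNAs miR-499 and miR-208b are named for their detection. Members and lists were chosen with earlier results of these data known. Mouse numbers did not pair the groups. Labels name separate mice. The normexp alternative used median spot signals, since no mean signal column was present.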

Additional observations from a re-analysis of the deposited data

How the results depend on the processing

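The number of miRNAs that passed, 29, became 13 with no scaling (none higher, 13 lower, median change -0.46), 6 with normexp background (median change 0.21), 5 with no filter on dim probes, 16 with only probes detected on all arrays and 5 with a floor of 0.05. Leaving out each mouse in turn gave 8 to 33, with 11 without mouse 2, 14 without mouse 3, 13 without mouse 5 and 8 without mouse 6. With the filter redone, an alternative chosen after seeing the data like the dmr scaling and the raised cold signal, these 4 gave 11, 14, 14 and 8. The cause of these shifts was not tested. The changes of miR-34b-5p that did not pass were -1.03 with no scaling, 0.16 (the opposite sign) with normexp and 0 with a floor of 0.05. The fold for miR-34b-5p with cold signals raised to the lowest signal well above background ranged from 1.07 (median over spots) to 1.73 (no scaling). The difference in its ratio to miR-34a became 0.26, and that of miR-34c 0.37, with normexp. That offset is larger than the signals of both numerators, so the setting cannot give a direction. No paired analysis was possible because mouse numbers are not shared between the groups. Dim signal limits miR-34b-5p, miR-34b-3p and miR-34c.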
